A study of Homo sapiens with 46 samples.

Results

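The genes described here carry the symbols of factors that start and extend protein chains on cytoplasmic ribosomes. They were chosen by symbol: every EIF1 to EIF6 symbol, without kinases, binding proteins, pseudogenes and EIF1AY, plus EEF1A1, EEF1B2, EEF1D, EEF1G and EEF2. The rule found 50 genes of 21166 in 4 count tables, 1 table for each cell type, and 48 of them were in every table. EIF4E1B was listed only in the table of pluripotent cells, and EIF4E3 was not listed in the endoderm table. Isoform rows of these genes numbered 100 for hPSC, 131 for ectoderm, 104 for endoderm and 101 for mesoderm.

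The series holds RNA-seq libraries from 4 cell types and 4 cell fractions. The cells were H1, an established human embryonic stem cell line, kept pluripotent in mTeSR1 on Matrigel (hPSC) or collected after 5 days of differentiation. Ectoderm received A83-01, PNU-74654 and Dorsomorphin, each at 2 µM. Endoderm received WNT3A and Activin A at 100 ng/ml in RPMI medium. Mesoderm received VEGF at 100 ng/ml, BMP4 at 100 ng/ml and bFGF at 10 ng/ml, with Activin A at 100 ng/ml for the first 24 hours. From each cell type came cytoplasm (a detergent lysate over sucrose), the nucleus (part of the nuclear pellet), nucleoplasm (the supernatant of a nuclear lysis with urea) and chromatin (the pellet of that lysis). Fractionation buffers of all groups held 25 µM α-amanitin, an inhibitor of RNA polymerase II. The series' design text also names actinomycin D, given to block transcription for half-lives; no label of these 46 libraries names that drug or a time after it. There were 46 libraries in 16 groups, 3 a group except mesoderm nucleoplasm with 1. All libraries came from 1 cell line, and the labels do not say whether repeats were separate cultures, so p-values measure the spread between these libraries, which may be technical.

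Libraries held 4990408 to 21298678 counts. All 7 pluripotency markers were listed in hPSC. In ectoderm 6 of 7 ectoderm markers were listed and SOX1 was absent, in endoderm 7 of 7 endoderm markers, and in mesoderm 5 of 7 mesoderm markers, with MIXL1 and KDR absent. Pluripotency markers were still listed in the 3 differentiated cultures (6, 6 and 4 of 7), and the endoderm table also listed all 7 mesoderm markers. The hPSC table also listed 4 mesoderm and 2 ectoderm markers. Summed mesoderm markers in cytoplasm were highest in mesoderm (164.7 to 171.2 counts-per-million). In nucleus they read 59.76 to 68.08 in mesoderm but 396.4 to 468.7 in hPSC and 174.4 to 240.8 in endoderm. Summed ectoderm markers in nucleus overlapped between mesoderm (1261 to 1586) and ectoderm (1268 to 1478). In cytoplasm they read 234.7 to 255.9 and 1144 to 1369. In bulk libraries, fewer cells of a type and less RNA per cell cannot be told apart.

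The fraction labels were checked against marker RNAs, and in part these went against them. Mitochondrially encoded RNA made up 8.09 to 16.09% of counts in the nucleus libraries of hPSC, ectoderm and endoderm but 0.399 to 1.581% in their cytoplasm libraries. In mesoderm the order was the opposite, with 5.835 to 7.457% in cytoplasm and 1.107 to 1.36% in nucleus. The summed level of a list of nuclear RNAs was higher in cytoplasm than in nucleus in ectoderm (1409 to 2537 against 117.9 to 494 in counts-per-million, CPM) and in endoderm (514.2 to 711.8 against 122.6 to 496.2). It overlapped in hPSC (886.7 to 902.6 against 850.8 to 1098) and was higher in nucleus in mesoderm (1269 to 1843 against 615.8 to 761.6). Below, cytoplasm and nucleus stand for the libraries so labelled, and where the markers go against the labels a direction between them holds for the labels alone; whether labels were exchanged was not tested. Among libraries that stood apart from their group in several factor genes were hPSC cytoplasm 1, ectoderm nucleus 2, endoderm nucleus 1, hPSC chromatin 3 and mesoderm chromatin 2. Counts of genes are given with and without these. Mesoderm chromatin 3 also differed from its group, with 5.532% mitochondrial RNA against 1.116 and 0.7688% in the other mesoderm chromatin libraries. It also read highest of its group in EIF5A, EIF3C and EIF3I.

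Protein synthesis begins when eIF4E, the protein that binds the mRNA cap, the scaffold eIF4G and the RNA helicase eIF4A bring a ribosomal subunit to an mRNA. That subunit carries eIF3 and a complex of eIF2, GTP and initiator tRNA; eIF2B recharges eIF2 with GTP, and eIF5B joins the large subunit. eEF1A then delivers aminoacyl-tRNAs and eEF2 moves the ribosome along. Many mRNAs of elongation factors and of some eIF3 subunits are TOP mRNAs, which start with a C and a run of pyrimidines and whose translation follows mTOR signalling.

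The start sites of 8 genes are shown as examples with and without a TOP-like run. Among them are the most abundant members, the helicases and cap-binding protein on which later results turn, and EIF3F, an eIF3 gene listed as a TOP gene. Each sequence is the sense strand from 10 bases before to 20 bases after the annotated start, from RefSeq on GRCh38.p14. Capitals mark a run of at least 5 pyrimidines that opens with C within 5 bases of the start.
EEF1A1: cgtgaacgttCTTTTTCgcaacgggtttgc
EEF1B2: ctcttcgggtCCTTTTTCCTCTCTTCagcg
EEF2: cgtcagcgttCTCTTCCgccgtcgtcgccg
EIF3F: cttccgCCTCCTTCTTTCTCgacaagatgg
EEF1G: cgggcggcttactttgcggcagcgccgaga
EIF4A2: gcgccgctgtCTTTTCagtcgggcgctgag
EIF4A1: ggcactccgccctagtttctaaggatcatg
EIF4E: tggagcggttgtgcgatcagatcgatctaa
The windows lie at chr6:73521013-73521042 on the minus strand for EEF1A1, chr2:206159885-206159914 on the plus strand for EEF1B2, chr19:3985444-3985473 on the minus strand for EEF2 and chr11:7987327-7987356 on the plus strand for EIF3F. They lie at chr11:62573872-62573901 on the minus strand for EEF1G, chr3:186783567-186783596 on the plus strand for EIF4A2, chr17:7572815-7572844 on the plus strand for EIF4A1 and chr4:98929114-98929143 on the minus strand for EIF4E. In the first 4 windows and in that of EIF4A2 the run was found, and EEF1G, although listed as a TOP gene, had none at its annotated start. Of the 42 members with a start in the RefSeq table, 47.6% held such a run, against 25.2% of 27305 genes; it was found in 4 of 5 matched TOP genes and 16 of 37 others. The match describes letters at an annotated start and is no measurement of these libraries.

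Elongation factor mRNAs were the most abundant of the set. On the deposited transcripts-per-million (TPM) scale, which is corrected for length, EEF1A1 in cytoplasm reached 13430 ± 2641 in hPSC and, in the differentiated cultures, 18920 ± 2400 (ectoderm), 14020 ± 484.9 (endoderm) and 20010 ± 1065 (mesoderm) (mean ± SD, n = 3 each). EEF1G, a subunit of the exchange factor for eEF1A, and EEF2 came next in each cell type, EEF1G at 2177 to 4327 TPM and EEF2 at 1369 to 2142 TPM, taken as group means. EIF4A1, an eIF4A helicase, followed in hPSC at 1031 ± 102.7 TPM. The lowest hPSC levels were those of EIF5A2 (1.25 TPM), a paralogue of the elongation factor EIF5A, and EIF4E1B (0.42 TPM), a germ-cell relative of EIF4E. EEF1A1 has many processed pseudogenes, and the way reads shared with them were counted was not checked, so its values are less certain than those of single-copy genes.

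The members together took 4.21 ± 0.247% of all counts in hPSC cytoplasm, 4.86 ± 0.191% in ectoderm, 4.26 ± 0.143% in endoderm and 5.00 ± 0.0390% in mesoderm cytoplasm (n = 3 each). In nucleus they took 2.10 ± 0.196%, 4.80 ± 0.630%, 1.41 ± 0.0420% and 1.69 ± 0.195%. The 2 fractions did not overlap in hPSC, endoderm and mesoderm and overlapped in ectoderm, where nucleus library 2 held 5.53% and the other nucleus libraries 4.46% and 4.42%. EEF1A1 alone was 1.945 to 2.927% of counts in the cytoplasm libraries. Chromatin held 2.71 ± 0.128%, 1.84 ± 0.214%, 0.986 ± 0.0519% and 1.58 ± 0.335% in the same order of cell types.

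**Figure D1:**
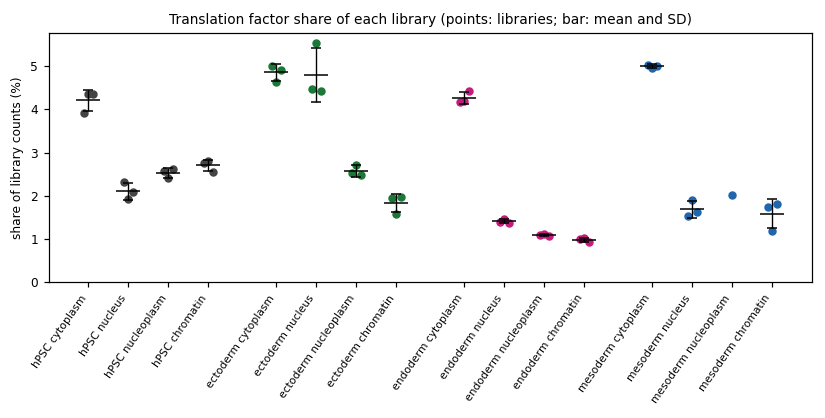
Percent of all counts of a library (y axis) that fell in the translation factor genes, each point 1 library, by fraction and cell type. The cytoplasm libraries lie above the nucleus libraries in hPSC, endoderm and mesoderm, and the ectoderm nucleus libraries reach 5.53%.

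The first comparison set cytoplasm against nucleus within each cell type, with edgeR's quasi-likelihood test on gene sums of counts and Benjamini-Hochberg adjustment over all genes; a gene passed at an adjusted p under 0.05. Most factor mRNAs were higher in cytoplasm in hPSC, endoderm and mesoderm, and in ectoderm they were split, with shares near those of all genes. In hPSC 39 of 50 were higher and 2 lower, where 65.7% of all genes passed (35.6% higher and 30.1% lower). In ectoderm 16 of 49 were higher and 12 lower (53.5% of all genes passed, 28.8% higher and 24.8% lower), in endoderm 36 of 48 and 3 (69.9%, 34.4% and 35.6%), and in mesoderm 39 of 49 and 3 (63.4%, 32.1% and 31.2%). The median log2 difference of the members was 0.99, -0.18, 0.84 and 1.16, beside 0.11, 0.03, 0.01 and 0.00 over all genes. All members listed in a table passed its filter on low counts. Mitochondrial and nuclear RNAs moved with the fractions as given above, and their part in these differences was not tested.

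These splits turned in part on the scaling or on a library. Without hPSC cytoplasm 1 the hPSC split was 41 and 1. In mesoderm the authors' TPM values, on the log2(TPM + 1) scale with limma, gave 9 higher and 11 lower; there the median of all genes stood at -0.83 and that of the members 0.81 above it. In ectoderm TPM gave 16 higher and 1 lower, total counts without trimmed-mean scaling gave 21 and 2 with all genes at 0.38, and DESeq2 gave 16 and 17. Without ectoderm nucleus 2 the ectoderm split was 16 and 6, and without ectoderm nucleus 1 it was 15 and 21. Without endoderm nucleus 1 the endoderm split was 41 and 3.

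**Figure D2:**
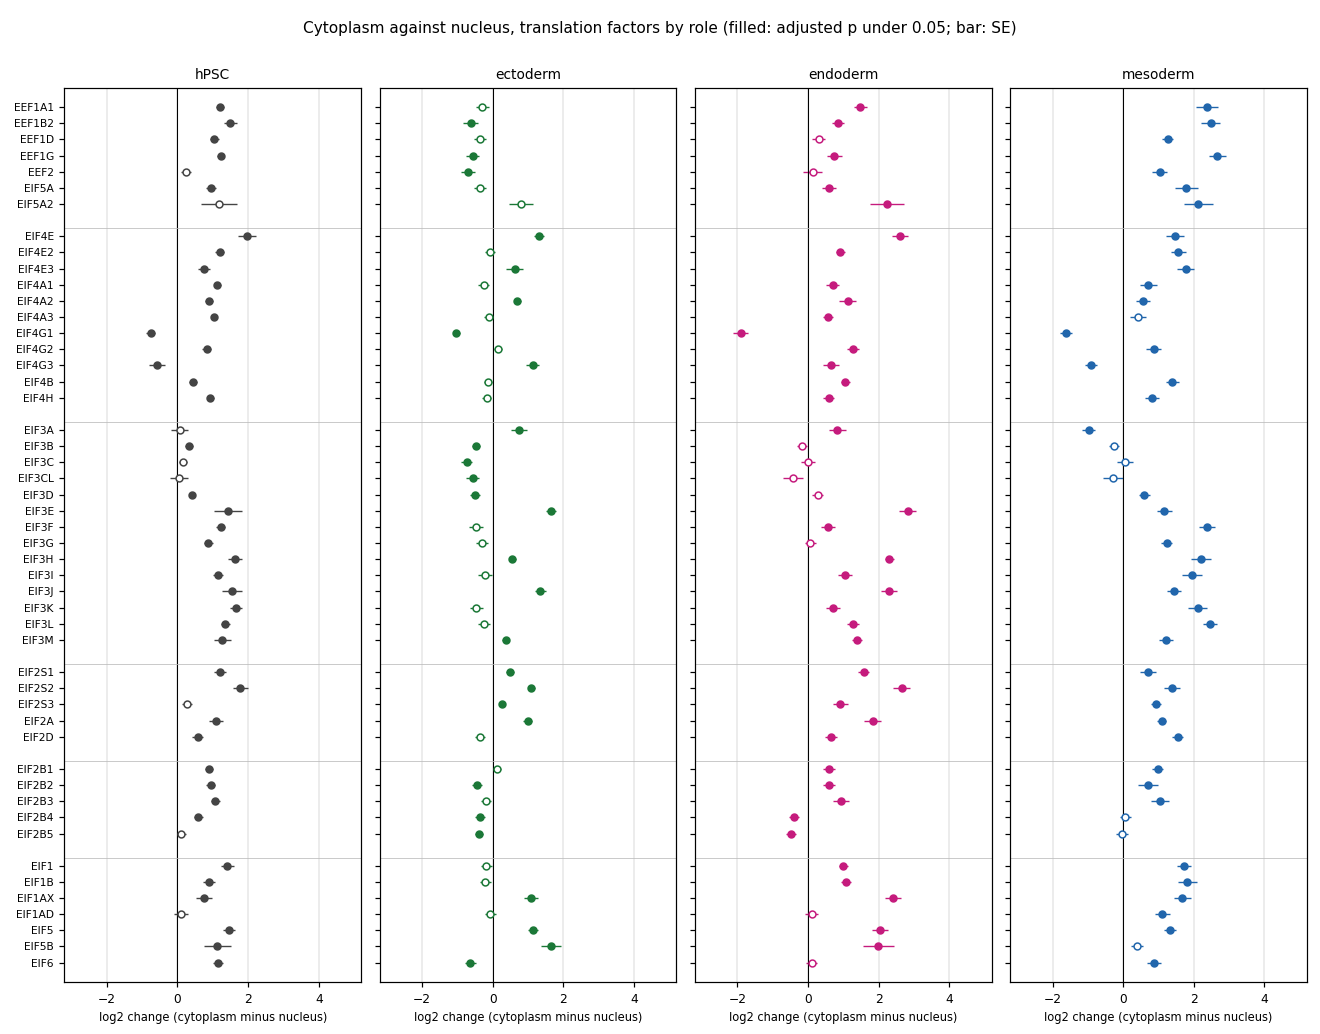
Log2 difference of each translation factor gene between cytoplasm and nucleus (x axis, above 0 is higher in cytoplasm) in each of the 4 cell types, with its standard error, 3 libraries a group. Most genes lie above 0 in hPSC, endoderm and mesoderm, those of ectoderm lie around 0, and EIF4G1 lies below 0 in each cell type.

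Elongation factors passed as higher in cytoplasm for 5 of 7 genes in hPSC, 5 of 7 in endoderm and 7 of 7 in mesoderm, and in ectoderm 3 of 7 were lower. EEF1A1, which carries aminoacyl-tRNA to the ribosome, stood at 21020, 23660 and 22000 scaled CPM in the hPSC cytoplasm libraries and at 10350, 8827 and 9668 in the nucleus libraries. In mesoderm it stood at 29870, 32310 and 33940 against 5838, 7371 and 5387. Neither pair of groups overlapped. The log2 difference of EEF1A1 was 1.21 ± 0.12 (SE, adjusted p = 1.42e-06, edgeR) in hPSC, 1.48 ± 0.18 (4.4e-06) in endoderm and 2.37 ± 0.31 (6.3e-05) in mesoderm. In ectoderm cytoplasm it read 26330, 27920 and 26790 and in nucleus 27060, 43970 and 27980, a difference of -0.29 ± 0.19 that did not pass (0.219). The highest ectoderm nucleus value came from library 2, and the other values of the 2 groups overlap.

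EEF1G in mesoderm had the largest elongation factor difference, 2.67 ± 0.25 (adjusted p = 5.01e-06, edgeR), from 3782, 3973 and 4248 scaled CPM in cytoplasm and 581.3, 690.1 and 608.4 in nucleus. In ectoderm the same gene was lower in cytoplasm, at 4192, 4630 and 4609 against 5112, 9300 and 5568, a difference of -0.57 (0.0226) that was lost without ectoderm nucleus 2 (-0.23, 0.0665) or cytoplasm 1 (-0.53, 0.0778). EEF1B2, another exchange factor subunit, followed EEF1G in sign: 1.50, -0.62 (0.0246), 0.85 and 2.48 over hPSC, ectoderm, endoderm and mesoderm, each of them past the threshold. The ectoderm call of EEF1B2 was lost without ectoderm nucleus 2 (-0.19, adjusted p = 0.138, edgeR) or cytoplasm 1 or 2 (0.078 and 0.0717).

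EEF2, the translocase, did not pass in hPSC or endoderm. Its hPSC values were 3190, 4488 and 4742 in cytoplasm and 3581, 3351 and 3624 in nucleus, which overlap, and the difference of 0.23 did not pass (adjusted p = 0.162, edgeR); without hPSC cytoplasm 1 it was 0.30 and passed (0.0243). In ectoderm EEF2 was lower in cytoplasm (4963, 5874 and 5584 against 6887, 12440 and 7621; -0.71 ± 0.20, 0.0087), and without ectoderm nucleus 2 the difference was -0.38 (0.0115). In endoderm the nucleus libraries read 5563, 2259 and 2674, and without the first of them the difference rose from 0.13 to 0.64 and passed (0.000116). In mesoderm it was higher (5487, 5533 and 5838 against 2657, 2635 and 2905; 1.04, 0.00115), but on TPM -0.10. EIF5A, which eases the ribosome through stretches such as polyproline, was higher in hPSC (0.94), endoderm (0.60) and mesoderm (1.79); the endoderm call was lost without endoderm nucleus 3 (0.48, adjusted p = 0.0646), and in ectoderm -0.36 did not pass, but -0.52 did without ectoderm nucleus 1 (0.0105).

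The cap-binding and helicase group held the 1 gene that was lower in cytoplasm in all 4 cell types, EIF4G1, the scaffold that joins eIF4E, eIF4A and eIF3. Its scaled CPM in cytoplasm and nucleus were 387.2, 516.7 and 544.6 against 763.4, 880.9 and 817.8 in hPSC. In ectoderm they were 252.3, 266.9 and 254.8 against 501.5, 584.4 and 491.2. In endoderm they were 444.7, 433.8 and 433.9 against 2307, 1256 and 1351, and in mesoderm 345, 308.6 and 340.9 against 1068, 1050 and 950.2. In no cell type did the fractions overlap. The log2 differences were -0.76 ± 0.13 (adjusted p = 0.000192, edgeR), -1.03 ± 0.10 (2.4e-06), -1.90 ± 0.21 (1.38e-06) and -1.63 ± 0.17 (1.22e-05). Each kept its call and direction under every alternative tried (11, 12, 11 and 11 of them), with values from -2.74 to -0.63.

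The partner of the scaffold, EIF4E, was higher in cytoplasm in all 4. It read 159.5, 124.5 and 123.4 scaled CPM in hPSC cytoplasm and 40.78, 30.04 and 33.0 in nucleus, and in endoderm 104.2, 111.2 and 86.73 against 10.19, 20.13 and 19.01. The groups did not overlap, and the lowest endoderm value was that of nucleus library 1. The log2 differences of EIF4E were 1.97 ± 0.25 (adjusted p = 1.41e-05, edgeR), 1.32 (4.1e-06), 2.61 (8.5e-08) and 1.47 (0.000334) in hPSC, ectoderm, endoderm and mesoderm.

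Of the eIF4A helicases, EIF4A2 was higher in cytoplasm in all 4 (0.89, 0.70, 1.13 and 0.55), and its mesoderm call was lost when any of 5 of the 6 mesoderm libraries was left out (0.44 to 0.56, adjusted p 0.069 to 0.133, edgeR). On TPM the mesoderm value was -0.58. EIF4A1 was higher in 3 (1.13, 0.70 and 0.71); its mesoderm call was likewise lost without any of 5 libraries (0.64 to 0.72, adjusted p 0.0522 to 0.0876), and on TPM it was -0.45. In ectoderm EIF4A1 stood at -0.26, which did not pass, and at -0.38 without ectoderm nucleus 1 (0.0471).
EIF4G3, a second scaffold, was lower in hPSC (-0.57, adjusted p = 0.0431) and mesoderm (-0.90) and higher in ectoderm (1.13) and endoderm (0.65). All its isoform rows in hPSC and endoderm lack an Ensembl transcript name, as do 20 of 23 in ectoderm and 6 of 7 in mesoderm. Its ectoderm values were 118.5, 119.6 and 106 scaled CPM in cytoplasm against 62.55, 33.72 and 61.7. Its hPSC call was lost without any of hPSC nucleus 2 and hPSC cytoplasm 1, 2 and 3 (adjusted p 0.0531 to 0.0846, edgeR). In endoderm it was 0.39 without nucleus 1 and 1.05 without nucleus 2, and the call was lost without nucleus 3 or cytoplasm 1 or 2 (0.0567 to 0.0681). Of the whole group 9 of 11 were higher in hPSC and 8 of 11 in mesoderm, 9 of 10 in endoderm and 4 of 11 in ectoderm.

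**Figure D3:**
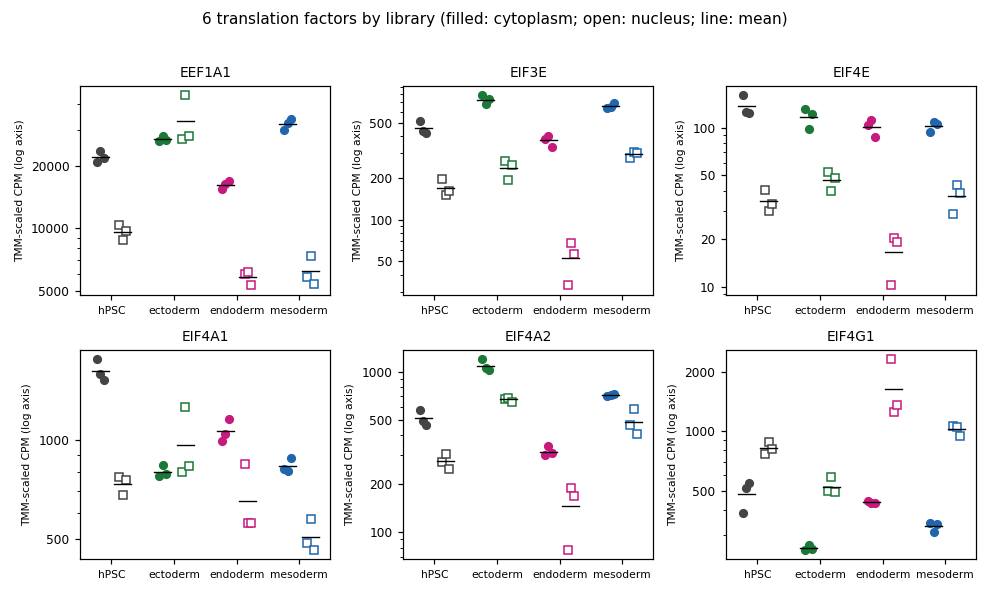
Scaled CPM (log axis) of EEF1A1, EIF3E, EIF4E, EIF4A1, EIF4A2 and EIF4G1 in each cytoplasm and nucleus library, to be compared within a cell type only, since each cell type was scaled on its own. EIF4G1 points are higher in nucleus and EIF4E and EIF3E points higher in cytoplasm in every cell type.

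The eIF3 complex, which holds the small subunit and binds eIF4G, was mostly higher in cytoplasm outside ectoderm: 11 of 14 genes in hPSC, 9 in endoderm and 10 in mesoderm, with 0, 0 and 1 lower. In ectoderm 5 were higher and 4 lower. EIF3E, a subunit that contacts eIF4G, had the largest difference of the complex in endoderm, where cytoplasm held 383.5, 401 and 333.7 scaled CPM and nucleus 33.61, 67.72 and 56.94. Its log2 differences were 1.43 ± 0.41 (adjusted p = 0.00718, edgeR), 1.64 ± 0.14 (6.54e-07), 2.82 ± 0.24 (9.58e-08) and 1.16 ± 0.21 (0.000575), the last at -0.02 on TPM. EIF3H, EIF3J and EIF3M were also higher in all 4, EIF3J by 1.55, 1.35, 2.29 and 1.44. EIF3K in hPSC (1.66) and EIF3L (2.46) and EIF3F (2.38) in mesoderm had large differences too, and in ectoderm these 3 stood at -0.46, -0.25 and -0.47 and did not pass. The core subunits EIF3A, EIF3B and EIF3C did not share that direction. EIF3A was higher in ectoderm (0.75) and endoderm (0.83) and lower in mesoderm (319.8, 332 and 276.5 against 611.1, 676.9 and 549.2; -0.98); without ectoderm nucleus 2 it was 0.48 and without endoderm nucleus 1 0.54. EIF3B was lower in ectoderm (-0.48; -0.29 without nucleus 2). In hPSC its 0.33 passed, but it kept that call in 4 of 11 alternatives: it was lost without any 1 of the libraries but cytoplasm 1 (0.19 to 0.28, adjusted p 0.0899 to 0.291, edgeR) and stood at -0.10 on TPM. EIF3C passed in ectoderm, at -0.74 (-0.46 without nucleus 2), with 0.16, 0.00 and 0.06 elsewhere; EIF3C and EIF3CL are near-identical copies, so their split is uncertain. EIF3CL read 463.7 scaled CPM in the lone mesoderm nucleoplasm library and 31.5 to 76.4 in the other mesoderm libraries.

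The group listed for eIF2 and initiator tRNA delivery held EIF2S1, EIF2S2, EIF2S3, EIF2A and EIF2D. It was higher in cytoplasm in every cell type, with 4 of 5 genes in hPSC, 4 in ectoderm, and 5 each in endoderm and mesoderm, and none lower. Only EIF2S1, EIF2S2 and EIF2S3 encode subunits of eIF2, which brings the initiator tRNA. EIF2S2, its beta subunit, stood at 347.3, 310.8 and 267.7 against 92.03, 88.97 and 88.11 scaled CPM in hPSC and at 182.4, 198.7 and 185.4 against 16.26, 42.23 and 31.34 in endoderm. Neither pair overlapped, and the log2 differences over the 4 cell types were 1.78, 1.09, 2.65 and 1.39. EIF2S1, the alpha subunit on which stress kinases act, had 1.20, 0.48, 1.58 and 0.71, the last lost without mesoderm nucleus 1, mesoderm nucleus 3 or mesoderm cytoplasm 2 (adjusted p 0.0506 to 0.086, edgeR). EIF2S3, the gamma subunit, had 0.27 in hPSC, which did not pass, and 0.27, 0.92 and 0.94; its ectoderm call was lost without nucleus 1 or cytoplasm 1 or 3 (0.0691 to 0.083). On TPM the mesoderm values of EIF2S1 (-0.39) and EIF2S3 (-0.20) lay below 0. The exchange factor eIF2B moved less evenly. In hPSC 4 of 5 of its genes were higher, in mesoderm 3, in ectoderm 3 were lower, and in endoderm 3 were higher and 2 lower. The 3 mesoderm genes, EIF2B1, EIF2B2 and EIF2B3, stood at -0.17, -0.42 and -0.13 on TPM. The catalytic subunit EIF2B5 stood at 0.11, -0.39, -0.48 and -0.03, and EIF2B4 at 0.59, -0.37, -0.40 and 0.06. Their ectoderm calls were lost without nucleus 2 (-0.29 and -0.18, 0.0589 and 0.237), as was that of EIF2B2 (-0.26, 0.0973), and without some of the cytoplasm libraries. The endoderm values of EIF2B4, 40.25, 37.42 and 42.61 against 56.38, 55.49 and 47.36, did not overlap, but the call was lost without endoderm nucleus 2, cytoplasm 1 or cytoplasm 2 (0.0531 to 0.0852), and on total counts both genes turned to 0.31 and 0.25.

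Of the genes listed as scanning and subunit-joining factors, 6 of 7 were higher in hPSC and in mesoderm, 5 in endoderm and 3 in ectoderm. EIF1AD is counted among them, though its symbol alone does not show that role. EIF1AX, a scanning factor, had 0.75, 1.09, 2.40 and 1.68, with 137.5, 155.9 and 117 scaled CPM in endoderm cytoplasm against 14.96, 30.85 and 31.5 in nucleus; the hPSC call was lost without hPSC nucleus 2 or 3 (0.59 and 0.61, adjusted p = 0.0665 and 0.0612, edgeR). EIF5, the activator of eIF2's GTP hydrolysis, had 1.46, 1.14, 2.05 and 1.33. EIF5B had 1.13, 1.65 and 1.99 in hPSC, ectoderm and endoderm, and 0.39 in mesoderm did not pass. In endoderm EIF5B was near the floor, at 2.169, 1.954 and 1.706 scaled CPM in cytoplasm against 0.4337, 0.3762 and 0.6131 in nucleus. The only isoform row of EIF5B in the endoderm table carries no Ensembl transcript name. The hPSC call of EIF5B was lost without hPSC nucleus 2 or 3 or cytoplasm 2 or 3 (0.89 to 1.01, adjusted p 0.0624 to 0.106). EIF6, which keeps free large subunits from joining, was higher in hPSC (1.15) and mesoderm (0.88) and lower in ectoderm (51.9, 65.63 and 65.11 against 80.98, 124.2 and 77.67; -0.63, and -0.36 without nucleus 2); on TPM its mesoderm value was -0.26, and in endoderm 0.11 did not pass.

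Over the 4 cell types, 11 of the 48 genes tested in all were higher in cytoplasm in each: EIF1AX, EIF2A, EIF2S1, EIF2S2, EIF3E, EIF3H, EIF3J, EIF3M, EIF4A2, EIF4E and EIF5. For hPSC, ectoderm and endoderm these are directions between labels that mitochondrial RNA went against. EIF3H alone of them kept its call in each cell type under every alternative. The mesoderm values of EIF2A (-0.05), EIF2S1 (-0.39), EIF3E (-0.02) and EIF4A2 (-0.58) lay below 0 on TPM, and of the other 7 only EIF3H passed on that scale. Of the 11 genes, EIF3E and EIF3H are on the list of 8 TOP genes. TOP genes were higher for 8 of 8 in mesoderm, 7 in hPSC and 6 in endoderm, and in ectoderm 2 were higher and 3 lower. Their median difference was 1.22, -0.42, 0.80 and 2.29, beside 0.91, -0.14, 0.87 and 1.04 for the other members. Another 16 genes were higher in 3 cell types and did not pass in ectoderm, among them EEF1A1, EIF1, EIF3F, EIF4A1, EIF4B and EIF5A. For this pattern and that of the 11 genes, the share of all genes was not counted, so neither count can be set against it.

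Whether a cytoplasm-nucleus difference itself differed from that of hPSC was tested as a contrast of contrasts; the 3 tests share the hPSC libraries. In ectoderm 1 of 48 members had a larger difference and 29 a smaller one, beside 51.9% of all genes past the threshold (27.4% larger and 24.6% smaller). In endoderm the counts were 10 and 7 (38.0% of all genes, 19.7% and 18.3%), and in mesoderm 13 and 3 (25.6%, 18.7% and 6.88%). The endoderm counts lay near the shares of all genes. The members' median was -0.74, 0.00 and 0.09, and that of all genes 0.10, -0.03 and 0.16. Elongation factors were smaller for 5 of 7 in ectoderm and larger for 4 of 7 in mesoderm, where 5 of 8 TOP genes were larger. EEF1A1 differed by -1.33 in ectoderm and 1.23 in mesoderm, EEF1G by -1.62 and 1.53 and EIF5A by -1.14 and 0.92; the last was lost without hPSC nucleus 1 or mesoderm nucleus 1 (adjusted p = 0.053 and 0.0534, edgeR). In endoderm EIF1AX (1.72), EIF3E (1.46) and EIF2S2 (0.94) were larger and EIF4G1 smaller (-1.04). EIF4A1 differed by -1.23 in ectoderm and stood at -0.34 and -0.35 in endoderm and mesoderm. EEF2 (-0.78, 0.00 and 0.87), EIF4E (-0.50, 0.71 and -0.42) and EIF4A2 (-0.03, 0.31 and -0.26) passed in none; EEF2 in ectoderm did pass without hPSC cytoplasm 1 (-0.95, 0.0256) or ectoderm nucleus 1 (-0.92, 0.0327), and EIF4E in endoderm without hPSC cytoplasm 1, endoderm nucleus 2 or 3 or endoderm cytoplasm 3 (0.82 to 0.89, 0.0244 to 0.0483). EIF2S1 was smaller in ectoderm (-0.56), lost without hPSC nucleus 3 (-0.51, 0.0577), and 0.45 in endoderm passed without endoderm nucleus 2 (0.55, 0.0407) or cytoplasm 3 (0.54, 0.0458). On total counts the split was 21 and 1 in endoderm and 8 and 5 in mesoderm, and on TPM 2 and 12, 24 and 0, and 1 and 20, with the median of all genes at 0.48, 0.52 and -0.60. Without ectoderm nucleus 2 the ectoderm split was 1 and 26, and without endoderm nucleus 1 that of endoderm was 7 and 5. Without hPSC cytoplasm 1 the splits were 1 and 31, 9 and 6, and 13 and 4.

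The second comparison set chromatin against nucleoplasm in hPSC, ectoderm and endoderm; mesoderm had 1 nucleoplasm library and is left out. The mRNAs that passed were mostly lower on chromatin. In hPSC 2 of 50 were higher and 10 lower (30.7% of all genes passed, 17.2% higher and 13.6% lower), in ectoderm 1 of 49 and 35 (43.3%, 21.6% and 21.8%) and in endoderm 4 of 48 and 26 (53.7%, 23.0% and 30.7%). The medians were -0.23, -0.66 and -0.62, and the median of all genes lay within 0.12 of 0. The hPSC count was small and moved with the library: without hPSC nucleoplasm 3 it was 0 and 5, and without hPSC chromatin 3 it was 3 and 8. On TPM, where the median of all genes stood at 0.47, 0.49 and 0.40, the splits were 18 and 1, 7 and 2, and 11 and 12, with the members 0.16, 0.49 and 0.37 below all genes. On total counts they were 3 and 6, 5 and 29, and 12 and 12.

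EIF2B5 was the 1 gene higher on chromatin in all 3. It read 37.9, 37.12 and 45.8 scaled CPM on chromatin and 27.78, 31.1 and 31.3 in nucleoplasm of hPSC, 66.32, 66.31 and 63.7 against 34.54, 41.14 and 33.55 in ectoderm, and 51.72, 63.83 and 47.19 against 30.88, 32.95 and 33.71 in endoderm. The groups did not overlap, and the log2 differences were 0.42 (adjusted p = 0.0268, edgeR), 0.85 (0.000133) and 0.74 (0.00054). The hPSC call was lost when any of 5 of the 6 libraries was left out (0.30 to 0.45, adjusted p 0.0569 to 0.207). EEF1D, an exchange factor subunit, passed as higher in hPSC (0.47) and endoderm (0.49) and stood at -0.05 in ectoderm; the hPSC call was lost without hPSC nucleoplasm 1 or 3 or chromatin 3 (0.0522 to 0.0863), and the endoderm call without any of 5 libraries (0.0854 to 0.131). In endoderm EIF2B4 (0.62) and EIF3G (0.79) were higher too.

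Among genes lower on chromatin in all 3 were EIF4E (-1.07, -0.96 and -0.93), EIF2S2 (-0.85, -1.06 and -0.85), EIF3H (-0.71, -1.37 and -1.65), EIF3M (-0.88, -0.79 and -0.45), EIF4A1 (-0.41, -0.64 and -0.87) and EIF2S1 (-0.68, -0.72 and -0.97). Without hPSC nucleoplasm 3 the hPSC calls of EIF3H (-0.70, adjusted p = 0.0522) and EIF4A1 (-0.37, 0.0609) were lost, and without hPSC chromatin 3 EIF3H was -0.46 and EIF3M -0.58. The endoderm call of EIF3M was lost without nucleoplasm 3 or chromatin 2 or 3 (0.0522 to 0.0716). On TPM, EIF4A1 stood at 0.16 in hPSC and 0.06 in ectoderm and EIF3M at 0.04 in endoderm. EIF3H in endoderm read 29.83, 23.4 and 27.03 scaled CPM on chromatin and 83.38, 84.18 and 85.13 in nucleoplasm, with no overlap. EIF2B3, a subunit of eIF2B, had the largest endoderm difference, -1.97, from 2.126, 2.576 and 4.164 against 12.21, 11.95 and 10.9. EEF1A1 was lower in ectoderm (-0.75) and endoderm (-1.14) and stood at -0.07 in hPSC, and EEF1G had -0.88, -1.46 and -0.28 in the same order. EIF5A had -0.79 and -1.15 in ectoderm and endoderm, both past the threshold, and -0.38 in hPSC. EIF4G1 was lower in ectoderm (-0.38) and endoderm (-0.63), with 0.05 in hPSC, and its endoderm call was lost without endoderm nucleoplasm 2 or chromatin 1 or 3 (0.0558 to 0.0669); on TPM it was 0.30 and 0.01 in the same cell types. EEF2 was lower in ectoderm (-0.60, and 0.07 on TPM), a call lost without ectoderm nucleoplasm 1 or 2 (0.0709 and 0.0591). EIF3I, an outer eIF3 subunit, was lower in ectoderm (-1.15) and endoderm (-1.71), as was EIF5B in ectoderm (-1.32). EIF3E read 677.4, 558.6 and 120.1 on hPSC chromatin, and its difference there, 0.20, did not pass but was 0.66 without chromatin 3 (0.00392).

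The third comparison set each differentiated culture against hPSC in cytoplasm, on 48 members; the 3 tests share the hPSC libraries. Most members that passed were lower than in hPSC. In ectoderm 10 rose and 27 fell (76.0% of all genes passed, 38.0% higher and 37.9% lower), in endoderm 2 and 21 (58.1%, 29.5% and 28.6%) and in mesoderm 9 and 27 (68.1%, 34.6% and 33.4%). The medians were -0.35, -0.21 and -0.32, with all genes at 0.01, 0.00 and 0.00. On TPM the splits were 11 and 18, 7 and 4, and 13 and 14, with all genes at 0.18, 0.28 and 0.17 and the members 0.26, 0.17 and 0.24 below them. Each table came from its own transcript assembly, so a gene's isoforms differ between tables; over transcripts listed in all 4 tables the splits were 10 and 19, 1 and 23, and 8 and 19 of 45 genes. Without hPSC cytoplasm 1 the splits were 8 and 28, 2 and 24, and 9 and 27. Summed pluripotency markers stood at 6148 to 6638 CPM in hPSC cytoplasm and at 2019 to 2551, 4537 to 5048 and 2616 to 2734 in the cultures, and mesoderm markers reached 108.4 to 142.8 in endoderm; the part of remaining or other cells in the differences was not tested.

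**Figure D4:**
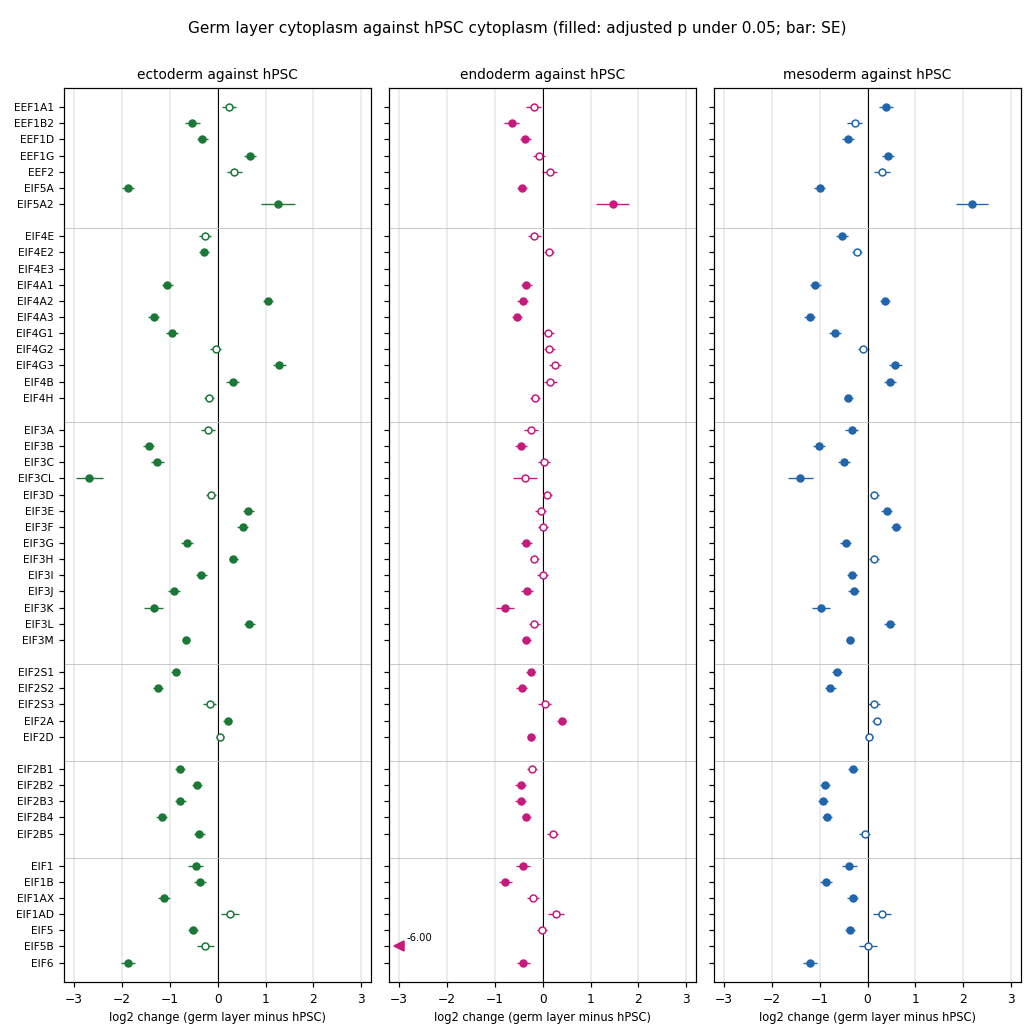
Log2 difference of each translation factor gene between a differentiated culture and hPSC in cytoplasm (x axis, below 0 is lower than in hPSC), with its standard error, 3 libraries a group. Most genes lie below 0, EIF4A2 lies above 0 in ectoderm and mesoderm and below it in endoderm, and the arrow stands for EIF5B in endoderm at -6.0.

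EIF5A and EIF4A1 were among 17 of 48 genes lower in all 3 cultures. The share of all genes lower in all 3 was not counted. EIF5A read 1088, 1082 and 1100 scaled CPM in hPSC, 270.6, 299.2 and 323.4 in ectoderm, 758.2, 778.1 and 895.6 in endoderm and 498.5, 606.1 and 531.9 in mesoderm. No culture overlapped hPSC; the log2 differences were -1.87 ± 0.12 (adjusted p = 1.57e-09, edgeR), -0.43 (0.00465) and -1.0 (2.02e-06), and 3 isoforms were summed in each table. Reads of EIF5A may be shared with its copy EIF5AL1. The paralogue EIF5A2 was the 1 gene higher in all 3 (1.26, 1.46 and 2.18), at low levels: 2.366, 4.005 and 1.123 in hPSC, 7.651, 4.331 and 6.078 in ectoderm, 7.017, 8.176 and 5.488 in endoderm and 11.07, 12.93 and 10.09 in mesoderm. On TPM it stood at 1.25 ± 0.752 in hPSC and 1.25 ± 0.483 in ectoderm (mean ± SD, n = 3 each), a log2(TPM + 1) difference of 0.03 that did not pass (adjusted p = 0.911, limma). A change of level and a change of the transcripts assembled cannot be told apart in ectoderm.

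EIF4A1 and EIF4A2, helicases that can replace each other in the cap-binding complex, went apart in ectoderm and mesoderm. EIF4A1 read 1878, 1762 and 1702 in hPSC, 840.9, 905.1 and 829.6 in ectoderm, 1303, 1363 and 1551 in endoderm and 828.7, 808.7 and 875.7 in mesoderm. EIF4A2 read 622.5, 548.2 and 517.3, then 1282, 1128 and 1076, then 395.3, 447.3 and 415.4, then 721.7, 717.6 and 723.9. EIF4A1 fell by 1.05, 0.34 and 1.09 on the log2 scale, the endoderm call being lost without endoderm cytoplasm 1 or 2 (adjusted p = 0.0651 and 0.0512, edgeR). EIF4A2 rose by 1.05 in ectoderm (4.85e-07) and 0.36 in mesoderm (0.00899) and fell by 0.42 in endoderm (0.00398), the 1 gene called in opposite directions. On the length-corrected TPM scale, EIF4A1 in hPSC stood at 1031 ± 102.7 and EIF4A2 at 302.2 ± 14.2, while in ectoderm they stood at 614.5 ± 73.5 and 762.4 ± 154.2 (n = 3 each). EIF4A2 had 2 isoform rows in hPSC and 4, 5 and 5 in the cultures.

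Of the other initiation factors, the eIF2B genes fell in 5 of 5 cases in ectoderm, 3 in endoderm and 4 in mesoderm, and the scanning group in 5, 4 and 5 of 7, with none higher. EIF2B2, which fell by 0.43, 0.46 and 0.89, was not lower on TPM in 2 of the cultures: it stood at 10.0 ± 1.99 TPM in hPSC, 28.4 ± 3.13 in endoderm and 20.4 ± 0.977 in mesoderm (n = 3 each), and on log2(TPM + 1) it passed as higher by 1.43 and 0.97. EIF2B4 in endoderm was lost without endoderm cytoplasm 2 (-0.29, adjusted p = 0.0539, edgeR). EIF6 read 286.7, 215.3 and 214.5 in hPSC, 55.94, 70.81 and 68.52 in ectoderm, 169, 162.4 and 210 in endoderm and 104.4, 102.6 and 104 in mesoderm (-1.87, -0.40 and -1.20), and its endoderm call was lost without endoderm cytoplasm 1 or 2 (0.0694 and 0.0773). EIF3K fell by 1.34, 0.79 and 0.97, EIF1B, a close relative of the start-codon factor EIF1, by 0.37, 0.78 and 0.87, and EIF3CL by 2.68 in ectoderm and 1.41 in mesoderm, its split from EIF3C being uncertain. Without hPSC cytoplasm 1 (-0.19, 0.101) or ectoderm cytoplasm 2 (-0.31, 0.0797) the ectoderm call of EIF1B was lost. EIF2S1 fell by 0.88, 0.25 and 0.64, the endoderm call being lost without endoderm cytoplasm 1 or 3 (adjusted p = 0.104 and 0.121, edgeR). EIF4G1 fell in ectoderm (-0.95) and mesoderm (-0.68) and stood at 0.11 in endoderm, with 3, 3, 5 and 4 isoform rows. EIF4A3, the helicase of the exon junction complex, fell by 1.34, 0.54 and 1.21 and EIF3B by 1.44, 0.45 and 1.02, with 0.07 for EIF3B in endoderm on TPM. EIF3 subunits did not all fall: EIF3F rose in ectoderm (0.52) and mesoderm (0.59), as did EIF3E (0.64 and 0.40), while 8, 5 and 9 of the 14 fell. On TPM EIF3F stood at 95.9 ± 11.8 in hPSC, 652 ± 55.0 in ectoderm and 98.9 ± 3.03 in mesoderm (n = 3 each), log2(TPM + 1) differences of 2.76 in ectoderm and 0.05 in mesoderm, where it did not pass. The isoform numbers of these genes differed between tables, EIF3F having 1, 3, 1 and 2 and EIF3E 3, 4, 2 and 2 in hPSC, ectoderm, endoderm and mesoderm.

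Elongation factors moved in both directions. EEF1A1 rose by 0.39 in mesoderm (adjusted p = 0.0272, edgeR), a call lost without mesoderm cytoplasm 2 or 3 (0.0938 and 0.101), and stood at 0.24 in ectoderm and -0.19 in endoderm, the latter at -0.31 and passing without hPSC cytoplasm 1 (0.0216). EEF2 stood at 0.35, 0.15 and 0.30, none passing; without hPSC cytoplasm 3 the ectoderm value was 0.47 (0.0205) and that of mesoderm 0.43 (0.039). EEF1G rose in ectoderm (0.68) and mesoderm (0.43), and EEF1B2 fell in ectoderm (-0.53) and endoderm (-0.65). Without hPSC cytoplasm 1, the library that read 839.5 for EEF1B2 where the other hPSC libraries read 546.5 and 492.4, its ectoderm value was -0.27 (0.0261). The cap-binding protein EIF4E passed in mesoderm (-0.53) and stood at -0.26 in ectoderm, where leaving out ectoderm cytoplasm 1 gave -0.35 (0.0308). Of 8 TOP genes 4 rose and 2 fell in ectoderm, 0 and 2 in endoderm and 4 and 1 in mesoderm.

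Some lineage values rest on how transcripts were assembled. EIF5B read 2.85, 2.559 and 2.287 scaled CPM in endoderm against 106.5, 191.9 and 195.2 in hPSC, a log2 difference of -6.0, but its only isoform row in the endoderm table carries no Ensembl transcript name while the hPSC row is a listed transcript. A lower level and a different transcript model cannot be told apart there. EIF4G3 rose in ectoderm (1.29) and mesoderm (0.58), with 2, 23, 1 and 7 isoform rows in the 4 tables, of which 2, 20, 1 and 6 were unlisted. Over the transcripts listed in all tables EIF2A, which rose in ectoderm (0.21, a call lost without any of 5 of the 6 libraries, adjusted p 0.0592 to 0.185) and endoderm (0.40), stood at -0.47 in endoderm (adjusted p = 0.00103, edgeR).

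On chromatin, too, most members that passed were lower than in hPSC. In ectoderm 3 of 48 were higher and 29 lower (62.9% of all genes passed, 30.5% higher and 32.4% lower), in endoderm 2 and 30 (61.9%, 28.9% and 33.0%) and in mesoderm 0 and 25 (54.6%, 27.1% and 27.5%). The medians were -0.58, -0.97 and -0.55, with all genes at -0.05, -0.07 and -0.03. Without hPSC chromatin 3 the splits were 2 and 30, 2 and 32, and 0 and 29, and without mesoderm chromatin 2 that of mesoderm was 1 and 19. Leaving out each library of the mesoderm test in turn, mesoderm chromatin 3 among them, gave 20 to 30 members past the threshold. On TPM mesoderm gave 4 and 13. EIF5A read 550.9, 597.8 and 515.4 in hPSC, 99.44, 94.27 and 106.4 in ectoderm, 159.9, 145.4 and 121.1 in endoderm and 132.1, 91.25 and 250.1 in mesoderm (-2.47, -1.96 and -1.81). EEF1A1 read 13630, 13550 and 13510, then 9640, 8173 and 9737, then 3260, 3413 and 2878, then 8607, 5201 and 8084; it fell in endoderm (-2.09) and mesoderm (-0.89), and -0.56 in ectoderm did not pass.

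EIF4A1 fell on chromatin by 1.21, 1.34 and 1.06, EIF1AX by 2.33, 1.54 and 1.48, EIF3I by 1.06, 2.14 and 1.02 and EIF3K by 1.19, 1.74 and 1.30. EIF2B3 fell in endoderm (-2.13), EIF1B in mesoderm (-1.56), and EIF6 (-1.78) and EIF3CL (-1.81) in ectoderm. EEF2 fell in endoderm (-1.12) and mesoderm (-0.79), and EIF2S1 in ectoderm (-0.87) and endoderm (-1.06); EIF2S1 in mesoderm, -0.53, passed without hPSC chromatin 3 (-0.72, adjusted p = 0.0133, edgeR) or mesoderm chromatin 3 (-0.82, 0.00641). EIF5A2 rose in ectoderm (1.11), a call lost without hPSC chromatin 2 or 3 or ectoderm chromatin 2 or 3 (0.0529 to 0.116). EIF4G1 was the 1 gene called in opposite directions there: 781.3, 786.7 and 910.6 scaled CPM in hPSC, 282.5, 257.2 and 277 in ectoderm (-1.60), and 1061, 1208 and 1047 in endoderm (0.42, adjusted p = 0.0383, edgeR). The endoderm call of EIF4G1 was lost when any 1 of 5 libraries was left out (0.0591 to 0.127). EIF2B5 rose in ectoderm (0.80) and endoderm (0.71), with 5 isoform rows in ectoderm and 1 in the other tables; over listed transcripts its ectoderm value was -2.36. EIF4A2 rose in ectoderm (0.72), and 0.31 and 0.39 elsewhere did not pass; without mesoderm chromatin 2 or 3 the mesoderm value was 0.53 or 0.50 and passed (0.0338 and 0.0243). EIF4E fell in endoderm (-0.83), a call lost without hPSC chromatin 1 or 2 or endoderm chromatin 2 or 3 (0.0626 to 0.141), and without hPSC chromatin 3 it passed in ectoderm (-0.63, 0.0308) and mesoderm (-0.96, 0.00413). EIF3E fell in ectoderm (-1.19), a call lost without any of hPSC chromatin 1 and 2 and the 3 ectoderm libraries (0.0582 to 0.156); in endoderm -0.95 did not pass but -1.40 did without hPSC chromatin 3 (0.000414).

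Isoform rows divided genes further. Of the members' isoforms tested between cytoplasm and nucleus, 56 of 98 were higher and 6 lower in hPSC (39.7% of all isoforms passed, 19.6% higher and 20.0% lower), 18 of 112 and 9 in ectoderm (13.7%, 7.03% and 6.62%), 47 of 101 and 10 in endoderm (42.1%, 19.3% and 22.9%) and 51 of 101 and 10 in mesoderm (32.0%, 15.3% and 16.8%). On TPM ectoderm gave 17 and 0 and mesoderm 16 and 25, and DESeq2 gave 22 and 19 in ectoderm; without each ectoderm cytoplasm library in turn 15 to 17 isoforms passed there. Isoforms named as protein coding in GENCODE release 29 were higher for 49 of 77, 14 of 76, 39 of 75 and 43 of 71 over hPSC, ectoderm, endoderm and mesoderm, while of those with no Ensembl name 0 of 11, 1 of 17, 3 of 16 and 1 of 11 were. In ectoderm the median difference was -0.21 for the coding isoforms and 0.43 for the unnamed ones, the reverse order of the other cell types (1.06 and -0.74, 0.99 and -0.18, and 1.32 and -1.23). Isoform counts share reads between transcripts and are less certain than gene sums.

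Isoforms of EIF4G1 gave values of different size in hPSC, where EIF4G1-206 read 212.7, 291.4 and 315.4 scaled CPM in cytoplasm and 331.9, 300.7 and 283.3 in nucleus, which overlap (-0.16, adjusted p = 0.538, edgeR). EIF4G1-202 read 54.53, 84.37 and 54.15 against 158.8, 245.0 and 209.6 (-1.67, 0.000967), and an isoform with no Ensembl name 100.2, 137.6 and 173.8 against 247.4, 285.5 and 293.3 (-1.0, 0.00121). EIF4G1-206 thus made up 57.6% of the gene in cytoplasm and 39.1% in nucleus. In ectoderm, endoderm and mesoderm EIF4G1-206 was lower in cytoplasm as well (-1.06, -1.47 and -1.17). EIF4G1-202 was lower in ectoderm (-1.12) and mesoderm (-2.18); the ectoderm call was lost without any library but nucleus 1 (0.074 to 0.144), and in endoderm -2.05 did not pass, its nucleus libraries reading 663.9, 20.45 and 269.3.

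EEF1D had isoforms on both sides. EEF1D-205 was lower in cytoplasm in hPSC (14.65, 21.77 and 19.98 against 26.77, 32.66 and 35.79; -0.75, adjusted p = 0.0186, edgeR), ectoderm (-0.90) and endoderm (-1.22). EEF1D-202, the leading isoform in hPSC, was higher there (244.5, 175.7 and 170.7 against 94.77, 79.1 and 73.74; 1.25) and in mesoderm (2.51). The hPSC call of EEF1D-205 was lost without hPSC nucleus 2 or 3 or cytoplasm 1 (0.0527 to 0.0669), and the ectoderm call without any ectoderm library but nucleus 1 (0.0568 to 0.116). EEF1D-232 made up 1.98% of EEF1D in endoderm cytoplasm and 11.6% in nucleus, and 1.51% and 16.4% in mesoderm. EEF1D-219, a retained-intron transcript, made up 1.19% in mesoderm cytoplasm and 15.1% in nucleus (-2.17).

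**Figure D5:**
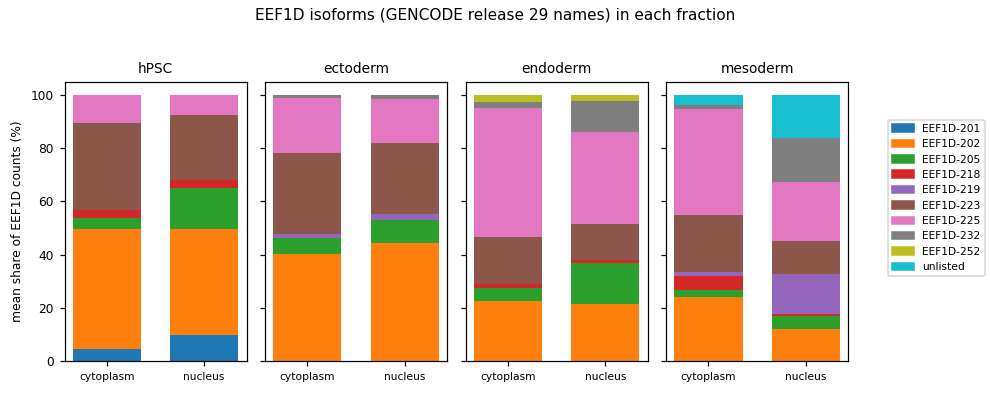
Share of each isoform in the summed counts of EEF1D (percent, stacked bars, mean of 3 libraries) in cytoplasm and nucleus of each cell type. EEF1D-205 takes a larger share in nucleus of hPSC (15.5 against 4.39%), and EEF1D-232 in nucleus of endoderm and mesoderm.

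Of isoforms at a mean of at least 10 CPM, those with the largest rise in cytoplasm were protein coding: EEF1B2-201 (2.13), EIF4E-203 (2.00) and, at 1.81 each, EIF5A-204, EIF2S2-201 and EIF3M-203 in hPSC, EIF3E-210 (1.86), EIF3E-209 (1.66) and EIF5B-201 (1.60) in ectoderm, EIF3J-201 (3.14), EIF3E-201 (3.06) and EIF2S2-201 (2.89) in endoderm, and EEF1D-218 (4.53), EEF1A1-203 (3.78) and EIF5A-205 (3.29) in mesoderm. The EEF1A1-203 call was lost without any 1 of the 6 mesoderm libraries (adjusted p 0.071 to 0.108, edgeR), and that of EIF3E-210 without ectoderm nucleus 1 or 2 or cytoplasm 3 (0.0649 to 0.0826). The hPSC call of EIF3M-203 was lost without hPSC nucleus 2 or 3 or cytoplasm 1 (0.0517 to 0.069). EIF4A1-234, a retained-intron transcript, read 0.743 scaled CPM in endoderm cytoplasm and 10.6 in nucleus on average (-3.82). EIF4A2-203, annotated as a target of nonsense-mediated decay, was higher in cytoplasm in hPSC (0.69, lost without nucleus 3 or cytoplasm 1, adjusted p = 0.0665 and 0.0691) and ectoderm (182.0, 158.3 and 206.8 against 74.97, 65.21 and 68.19; 1.39), and did not pass in endoderm (0.67) or mesoderm (0.69). EIF6-201 was lower in endoderm cytoplasm (-1.29), taking 9.14% of the gene there and 29.1% in nucleus.

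Other genes of the pathway were taken from fixed lists. Of kinases, binding proteins and other regulators of these factors, 13 of 23 were higher in cytoplasm and 7 lower in hPSC, 6 of 22 and 7 in ectoderm, 9 of 22 and 7 in endoderm and 12 of 23 and 5 in mesoderm. Over all genes 35.6% were higher and 30.1% lower in hPSC, 28.8 and 24.8% in ectoderm, 34.4 and 35.6% in endoderm, and 32.1 and 31.2% in mesoderm; the regulators' shares in ectoderm and endoderm lay near these. Of cofactors that act with the factors, such as poly(A)-binding proteins and release factors, 12 of 15 were higher and 0 lower in hPSC, 7 of 15 and 2 in ectoderm, 11 of 15 and 0 in endoderm, and 11 of 16 and 1 in mesoderm. Of the mitochondrial translation factors 3 of 6, 2 of 6, 2 of 5 and 2 of 6 were higher, and 3, 2, 2 and 2 lower. In cytoplasm against hPSC, 10, 6 and 10 of 15 cofactors fell in ectoderm, endoderm and mesoderm and 1, 0 and 2 rose, while regulators gave 8 higher and 7 lower, 8 and 4, and 8 and 6 of 21, beside 38.0 and 37.9%, 29.5 and 28.6%, and 34.6 and 33.4% of all genes; the regulators' shares in ectoderm and mesoderm lay near these.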

How the data were processed

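RNA-seq of cytoplasm, nucleus, nucleoplasm and chromatin of H1 cells and 3 differentiated cultures was used, 46 libraries in 16 groups. The authors deposited counts and TPM per isoform, 1 table of each for each cell type from its own transcript assembly; per the submitters' processing notes, STAR, RSEM and hg38 were used, with no versions given. Strandedness, filters and read trimming are not given in the sources used here. The deposited counts were whole numbers and the deposited TPM values were used only as an alternative. Columns named Nei were taken as nucleus by elimination, the mesoderm nucleoplasm column carries the number 3 while its label says repeat 1, and 1 ectoderm count column that matches no label was not used.

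Isoform counts were summed by Ensembl gene, and TPM group means by gene symbol. Rows that name no Ensembl gene held 0.278 to 9.60% of a library's counts and were left out of the gene sums. Genes were kept by filterByExpr with a minimum count of 10, scaled by trimmed means and tested with edgeR 4.0.16 (quasi-likelihood F test, R 4.3.3), each cell type fitted on its own and lineages fitted together on genes shared by the tables. P-values were adjusted by Benjamini-Hochberg over all genes or isoforms, with a threshold of 0.05. The standard error is the log2 difference divided by the square root of F. The fit was tested on simulated data. Scaled CPM is counts-per-million of the scaled library size. No pair of the 45 replicate pairs held identical values.

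Alternatives were DESeq2 1.42.0, limma 3.58.1 on log2(TPM + 1), total counts without trimmed means, no filter, the replicate number as a block, each library left out in turn, and only transcripts listed in all 4 tables. The members, the lists and the rule for named genes were chosen with earlier results of these data known. Named genes are a fixed core (EEF1A1, EEF2, EIF4E, EIF4A1, EIF4A2, EIF4G1, EIF2S1, EIF3E and EIF5A) plus, in each gene comparison, at most 4 called members in each direction, those that moved most with no overlap between groups, and at most 3 isoforms each way at a mean of at least 10 CPM; others are named as examples chosen after their values were seen. Start-site sequences come from RefSeq. They were matched by symbol, and member starts on chromosome 8 were left out. Windows were found for 42 of 50 members, and EEF1D, EIF2S2, EIF3A, EIF3CL, EIF3E, EIF3G, EIF3H and EIF3L had none.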

Additional observations from a re-analysis of the deposited data

Results flagged for a closer look

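These genes had a cytoplasm-nucleus difference (log2, edgeR) that differed between a differentiated culture and hPSC in a direct test of the difference; values above 0 mean that the level in libraries labelled cytoplasm, relative to those labelled nucleus, was higher than in hPSC, and the tests share the hPSC libraries. In ectoderm EIF4G3 differed by 1.84, EEF1B2 by -1.94, EIF3K by -1.94, EEF1G by -1.62, EIF6 by -1.61, EEF1A1 by -1.33, EIF4A1 by -1.23, EIF5A by -1.14 and EIF2S1 by -0.56. In endoderm EIF1AX differed by 1.72, EIF3E by 1.46, EIF4G3 by 1.29, EIF2S2 by 0.94, EIF4G1 by -1.04, EIF6 by -0.94, EIF2B4 by -0.91 and EIF3K by -0.85. In mesoderm EEF1G differed by 1.53, EEF1A1 by 1.23, EIF3F by 1.23, EIF3L by 1.19, EIF5A by 0.92, EIF4G1 by -0.79, EIF4A3 by -0.54 and EIF3B by -0.52. The mesoderm call of EIF3B was lost when any 1 of 11 of the 12 libraries was left out (adjusted p 0.0508 to 0.107, edgeR), and the endoderm call of EIF3K without hPSC nucleus 2 or 3, hPSC cytoplasm 1, endoderm nucleus 1 or endoderm cytoplasm 1 or 2 (0.0708 to 0.145). EIF4G3 has 2, 23, 1 and 7 isoform rows in the tables of hPSC, ectoderm, endoderm and mesoderm, of which 2, 20, 1 and 6 are unlisted. Mitochondrial RNA was higher in nucleus than in cytoplasm in hPSC, ectoderm and endoderm and lower in mesoderm; its part in these differences was not tested.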

How the results depend on the processing

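The authors' TPM values moved most counts of members past the threshold: to 17 of 28 for cytoplasm against nucleus in ectoderm and 20 of 42 in mesoderm, 19 against 12 for chromatin against nucleoplasm in hPSC and 9 against 36 in ectoderm, 17 against 27 for ectoderm isoforms, 11 against 23 in endoderm cytoplasm against hPSC, 21 against 32 in ectoderm chromatin and 14 against 30 for the ectoderm difference of differences. DESeq2 gave 20 for hPSC chromatin and 41 for ectoderm isoforms, and transcripts listed in all 4 tables, an alternative chosen after seeing the data, 21 for ectoderm chromatin. Leaving out each library gave 5 to 16 genes for hPSC chromatin against nucleoplasm, the lowest without nucleoplasm 3, 15 to 34 ectoderm isoforms, and 10 to 21 for the endoderm difference of differences, the lowest without endoderm cytoplasm 2. The cause was not tested.

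With the replicate number as a block, 40, 28, 39 and 41 members passed between cytoplasm and nucleus in hPSC, ectoderm, endoderm and mesoderm, 14, 36 and 28 between chromatin and nucleoplasm, and no count moved by over 1.5 times. Whether equal numbers mark libraries of the same culture could not be told. Deviations of same-numbered cytoplasm and nucleus libraries of a cell type correlated at -0.49 to 0.331. For unequal numbers the range was -0.388 to 0.444. Between chromatin and nucleoplasm the ranges were -0.084 to 0.123 and -0.134 to 0.111. With 3 libraries a group these values cannot decide it.

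Of the members called between cytoplasm and nucleus, 31 of 41, 15 of 28, 34 of 39 and 12 of 42 kept call and direction under every alternative. Signs turned as follows, in the order of the comparisons. With TPM, cytoplasm against nucleus gave EEF2 -0.20 in hPSC, EEF1A1 0.03 and EIF4A1 0.04 in ectoderm, and EEF2 -0.10, EIF4A1 -0.45, EIF4A2 -0.58, EIF2S1 -0.39 and EIF3E -0.02 in mesoderm. Chromatin against nucleoplasm gave EEF1A1 0.53, EEF2 0.47, EIF4A1 0.16, EIF4A2 0.31 and EIF5A 0.21 in hPSC, EEF2 0.07, EIF4A1 0.06 and EIF4G1 0.30 in ectoderm, and EEF2 0.26, EIF4G1 0.01 and EIF3E 0.26 in endoderm. Against hPSC, EIF4E was 0.06 in ectoderm cytoplasm, EEF1A1 0.08, EIF4E 0.10, EIF2S1 0.01 and EIF3E 0.23 in endoderm cytoplasm, and EIF5A2 -0.14 and EIF4E 0.02 on ectoderm chromatin. Differences of differences were EIF4A2 0.51, EIF4E 0.03 and EIF4G1 0.44 in ectoderm and EEF2 0.76, EIF4A1 0.32 and EIF5A 0.43 in endoderm.

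On total counts, EEF1A1 0.09 and EEF2 0.06 (hPSC chromatin against nucleoplasm), EEF1A1 0.08, EIF4A1 0.10 and EIF5A 0.01 (ectoderm cytoplasm against nucleus), EIF2B5 0.25 and EIF2B4 0.31 (endoderm), EEF2 0.23 and EIF3E 0.28 (endoderm chromatin against nucleoplasm), EIF3E 0.05 (endoderm cytoplasm against hPSC), EIF4A2 0.08 (ectoderm difference of differences) and EEF2 0.57, EIF4A1 0.20 and EIF5A 0.31 (endoderm) turned. Over listed transcripts, EIF4E 0.02 and EIF3E -0.49 (ectoderm cytoplasm), EIF2A -0.47 and EIF4G1 -0.09 (endoderm cytoplasm), EIF2B5 -2.36, EEF1A1 2.36, EEF2 0.04 and EIF4E 0.05 (ectoderm chromatin), EIF4A2 -0.49 (endoderm chromatin), EIF4A2 -0.04 (mesoderm chromatin) and EIF4A2 0.18 (ectoderm difference of differences) turned, and without a filter EEF2 was 0.00 (endoderm).

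Leaving out each library turned the sign of these values, none of them called with all libraries in, over the ranges given. In hPSC chromatin against nucleoplasm EIF4G1 ranged from -0.02 to 0.08 and EIF3E from -0.28 without chromatin 1 to 0.66 without chromatin 3. In endoderm cytoplasm EEF2 ranged from -0.08 to 0.64 against nucleus, the highest without nucleus 1, and against hPSC EEF2 from -0.08 to 0.27, EIF4G1 from -0.09 to 0.22 and EIF3E from -0.10 to 0.03. EIF3E on mesoderm chromatin ranged from -0.11 without hPSC chromatin 3 to 0.74. Differences of differences ranged, in ectoderm, from -0.11 to 0.05 (EIF4A2) and -0.25 to 0.00 (EIF4G1), and in endoderm from -0.22 to 0.45 (EEF2), -0.01 to 0.56 (EIF4A2) and -0.40 to 0.01 (EIF5A). Depth limits low genes such as EIF5A2, and 3 libraries a group limit small differences.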
